A study of Mus musculus with 3 samples.

Results

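The interferon response genes examined here are 41 named genes of the 54838 listed in the feature tables, chosen by symbol and divided into 30 genes of the type I response and 11 genes of the type II response. All 41 were found and had at least 1 unique molecular identifier (UMI, a tag that counts a captured RNA molecule once) in each section. They were measured by spatial transcriptomics on BMKMANU S1000 slides in thymus sections of 3 female C57BL/6 mice. The groups were Trp53-/- (KO, 2 sections, KO1134 at 17 weeks and KO1308 at 21 weeks) and Trp53+/+ (WT, 1 section, WT1101 at 17 weeks). Trp53 is the gene of the p53 tumour suppressor, and the labels name no other allele or treatment. The KO and WT tissues were permeabilised for different times, so genotype and permeabilisation cannot be told apart, and each section is 1 library.

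Interferons are secreted proteins that set cells into an antiviral and immune-alert state. Type I interferons (alpha and beta) signal through Ifnar1 and Ifnar2 to a complex that includes Stat2 and Irf9 and binds the interferon-stimulated response element (ISRE) of its target genes, whereas interferon gamma, the only type II interferon, signals through Ifngr1 and Ifngr2 to factors that bind the gamma-activated site (GAS). In the thymus, epithelial cells and dendritic cells of the medulla are known for steady interferon signalling without infection, while the cortex is filled with immature thymocytes. The lists overlap in biology, since many genes named here for one response can be induced by the other.

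The letters of these elements were looked for in the members' promoters. RefSeq promoters (GRCm38.p6, 250 bases before the transcription start) matched 21 of the 30 type I genes and 9 of the 11 type II genes. The ISRE core GAAANNGAAA, read on both strands, occurred in 8 of 21 type I promoters (38.1%) and 6 of 9 type II promoters (66.7%), beside 3.46% of the promoters of 27025 genes. The GAS letters TTCNNNGAA occurred in 4 of 21 (19.0%) and 3 of 9 (33.3%), beside 8.13% of all genes. The letters of both motifs can share bases, as they do in Bst2. Stretches of 8 promoters are printed to show the elements in members that are described further on, with the matching letters in capitals. The motifs do not separate the lists: the first 4 are type I genes with ISRE letters, and the last 4 are type II genes, of which Irf1 has GAS letters alone and Igtp has both.
Isg15 (chr4:156200860-156200911, minus strand): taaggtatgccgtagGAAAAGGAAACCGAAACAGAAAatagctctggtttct
Ifit1 (chr19:34640770-34640828, plus strand): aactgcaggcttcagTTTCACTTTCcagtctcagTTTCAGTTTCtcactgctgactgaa
Ifit3 (chr19:34583358-34583431, plus strand): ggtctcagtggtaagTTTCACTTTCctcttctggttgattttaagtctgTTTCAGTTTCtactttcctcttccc
Rsad2 (chr12:26456548-26456587, minus strand): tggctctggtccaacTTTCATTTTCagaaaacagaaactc
Gbp2 (chr3:142620589-142620628, plus strand): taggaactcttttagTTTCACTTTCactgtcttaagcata
Cxcl10 (chr5:92349078-92349117, minus strand): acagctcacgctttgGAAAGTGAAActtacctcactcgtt
Irf1 (chr11:53769909-53769947, plus strand): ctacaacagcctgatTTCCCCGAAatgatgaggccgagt
Igtp (chr11:58199496-58199546, plus strand): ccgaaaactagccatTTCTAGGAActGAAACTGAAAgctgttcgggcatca
No letters of either motif were found for 13 of the 30 members with a promoter, namely Ifi44, Ifi35, Irf7, Irf9, Oasl1, Oasl2, Xaf1, Ifih1, Ddx58, Trim25, Cmpk2, Ifi47 and Cxcl9. The promoters are background to the measurements, which did not read binding.

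Levels are given in CPM, the UMIs of a gene scaled to a common library total, over square bins of 27 µm, each of which can hold several cells. Bins with at least 300 detected genes were assigned to compartments by marker genes in their neighbourhood, and 12026, 16227 and 27102 bins lay in tissue in KO1134, KO1308 and WT1101. The median depth was 2642 UMIs per bin in KO1134, 869 in KO1308 and 1358 in WT1101. The cortex held 5338, 7022 and 15020 bins and the medulla 3310, 6458 and 9700 bins, in the same order. The area outside the thymus as first defined proved in WT1101 to be nearly all medulla with few thymocytes: 2309 of its 2382 bins had a medulla-gene share at least as high as the medulla itself, and its 7 medulla markers summed to 942 CPM against 334 CPM in the medulla. After the data were seen it was therefore divided into thymocyte-poor medulla (647, 1012 and 2309 bins) and outer tissue (772, 1264 and 73 bins). Trp53 itself was at 81.4 CPM in WT1101 cortex, 14.1 CPM in KO1134 and 23.0 CPM in KO1308, below WT in both KO sections but not at 0. The compartments were not of equal make-up. The 6 thymus genes summed to 2269 CPM in WT1101 cortex, 882 in KO1134 and 2053 in KO1308, and the 7 medulla markers to 107, 142 and 329 CPM. The thymus genes were thus lower in KO1134 cortex, and the medulla markers higher in KO1308 cortex, than in WT. Which cells account for these sums was not read, and the part of this in the results was not tested. Since a bin pools cells, fewer cells of a type and less RNA per cell cannot be told apart.

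With 1 WT section no test of genotype was possible, and intervals (95%, exact Poisson for CPM and exact conditional binomial for ratios) cover counting error only. The only spread between mice is the difference between both KO sections, so both are given throughout.

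The type I genes were higher in the cortex of both KO sections. Their summed level was 826 CPM (816 to 837) in WT1101, 2471 CPM (2445 to 2496) in KO1134 and 1405 CPM (1379 to 1431) in KO1308, and no intervals overlapped. The ratio to WT was 2.99 (2.94 to 3.04) in KO1134 and 1.70 (1.66 to 1.74) in KO1308, with a mean of 2.34 ± 0.912 (SD, n = 2 KO sections), so the KO sections differed from each other by more than counting error. Of the 30 genes, 29 lay above WT in both KO sections, as did 41.4% of all genes tested, and 19 lay above it by at least 2-fold in both. Among all members 21 of 41 were at least 2-fold above WT in both KO sections in the cortex, where the same held for 8.75% of 18074 genes with at least 20 UMIs. The median gene of the whole table had a ratio of 1.03 in KO1134 and 1.15 in KO1308 (a shift of 0.20 on the log2 scale in the latter), against a median of 4.30 and 2.46 over the type I genes.

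**Figure D1:**
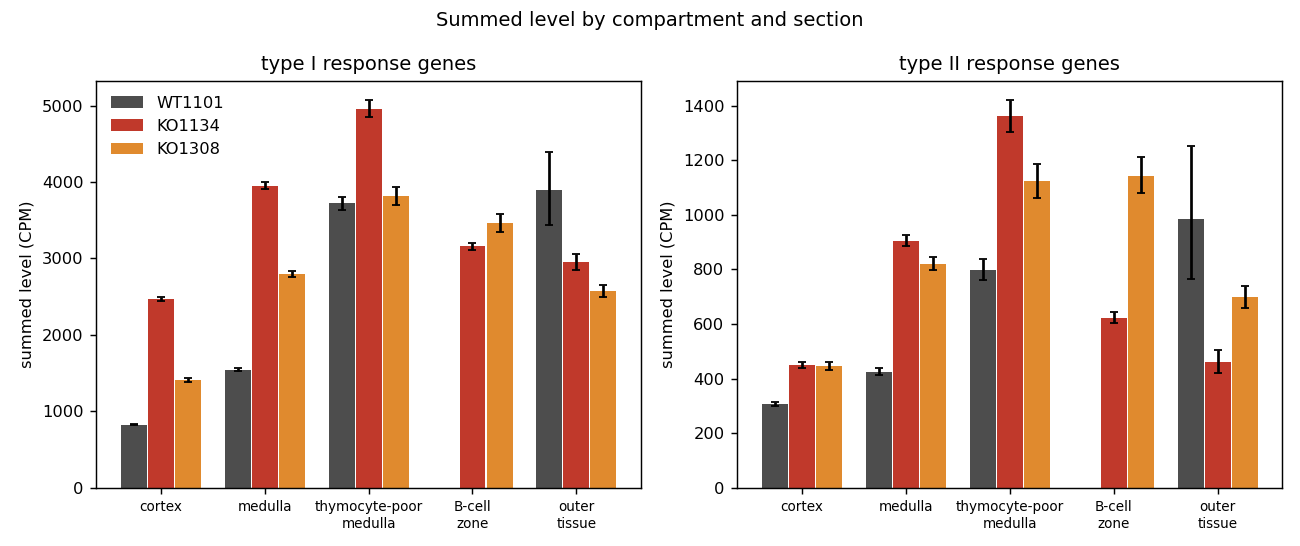
Summed level (CPM) of the 30 type I genes (left) and the 11 type II genes (right) by compartment, with a bar for each section and exact 95% Poisson intervals. In the cortex the type I bars stand at 826 CPM in WT1101, 1405 in KO1308 and 2471 in KO1134, while in the thymocyte-poor medulla WT1101 and KO1308 stand close together; WT1101 had no B-cell zone bins and only 73 bins of outer tissue.

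The oligoadenylate synthetase family stood furthest above WT as a group in the cortex. Its active enzymes answer double-stranded RNA by making the messenger that activates RNase L. In the cortex Oas1a was at 3.17 CPM in WT1101, and its ratio to WT was 11.4 (9.04 to 14.5) in KO1134 and 5.06 (3.81 to 6.75) in KO1308. Oas2 was at 2.87, 32.3 and 9.64 CPM, and Oas3 at 4.49, 34.7 and 11.5 CPM, in the same order. WT1101 was the lowest section for each of them and KO1134 the highest. Oasl1, known to restrain translation of Irf7, was at 2.04, 19.3 and 8.14 CPM, and its relative Oasl2 was at 17.7, 66.7 and 49.7 CPM. All 5 were at least 2-fold above WT in both KO sections, and their summed ratio was 6.25 (5.78 to 6.77) in KO1134 and 3.14 (2.84 to 3.48) in KO1308. Oas1a has close copies on chromosome 5, so reads may be divided among them.

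The restriction factors, which block steps of viral replication, were also higher. Mx1, a dynamin-like GTPase whose allele in C57BL/6 mice encodes no full-length protein, was at 1.09 CPM in WT1101 cortex, 14.6 in KO1134 and 8.39 in KO1308, ratios of 13.3 (9.03 to 20.4) and 7.67 (4.89 to 12.3) that rest on 29 UMIs in WT1101. Mx2, annotated as a polymorphic pseudogene, was at 2.07, 14.8 and 5.01 CPM. Rsad2 (viperin, which makes a chain-terminating nucleotide) was at 4.37, 23.1 and 11.8 CPM. For each of these genes WT1101 was the lowest section and KO1134 the highest. Bst2, or tetherin, which holds budding virus at the cell surface, was at 132 CPM in WT1101, 482 in KO1134 and 199.6 in KO1308. Samhd1, which degrades deoxynucleotides, was at 21.3, 54.5 and 45.6 CPM. Bst2 was the member of this group whose ratio was smallest in KO1308, at 1.52 (1.43 to 1.61).

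Among the transcription factors Irf7, which amplifies the type I response, differed most. It was at 22.1 CPM in WT1101 cortex, 158 in KO1134 and 58.4 in KO1308, with ratios of 7.14 (6.52 to 7.84) and 2.65 (2.34 to 2.99). Irf9 was at 33.4, 87.0 and 73.3 CPM, at least 2-fold above WT in both KO sections. Stat2, its partner in the same complex, was at 38.6, 40.9 and 48.7 CPM, with an interval of the ratio that included 1 in KO1134 (0.956 to 1.17). The 2 partners thus stood apart in both KO sections.

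The IFIT genes bind foreign RNA ends. Ifit3 was at 6.37 CPM in WT1101 cortex, 39.4 in KO1134 and 19.9 in KO1308, and Ifit1 was at 7.73, 35.3 and 19.8 CPM. Ifit2 was at 19.3, 29.3 and 21.9 CPM, and its ratio in KO1308 was 1.13 (0.949 to 1.35). Ifit1 and Ifit3 stood at least 2-fold above WT in both KO sections and Ifit2 in neither. Ifit3 has a near-identical neighbour in the mouse genome, so its count is uncertain.

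The genes of the ISG15 system differed from each other in direction. Isg15, the ubiquitin-like protein that is joined to newly made proteins, was at 28.1 CPM in WT1101 cortex, 94.3 in KO1134 and 46.3 in KO1308. Usp18, which removes it and damps the type I receptor, was at 12.1, 38.4 and 20.9 CPM. Trim25, a ubiquitin ligase of the RIG-I pathway, was at 161, 139.8 and 155 CPM and was the one type I gene below WT in both KO sections, with ratios of 0.867 (0.822 to 0.914) and 0.958 (0.899 to 1.02). Among the cytoplasmic sensors Dhx58 was at 2.07, 9.68 and 7.89 CPM, Ifih1 at 13.4, 42.5 and 16.9 CPM, and Zbp1, a sensor of Z-form nucleic acid, at 22.4, 61.3 and 42.7 CPM. Ddx58, which encodes RIG-I, was at 50.8, 65.6 and 57.1 CPM. In KO1308 the ratios of Ddx58 (1.13), Ifit2 (1.13) and Ifi35 (1.05) were above 1 but below the ratio of the median gene.

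The remaining type I genes were higher in both KO sections to different degrees. Ifi27l2a, which encodes a small interferon-induced protein and had the most UMIs of the type I genes, was at 89.1 CPM in WT1101 cortex, 416 in KO1134 and 225 in KO1308. Without it the type I ratio was 2.79 in KO1134 and 1.60 in KO1308, so that the difference did not rest on it. Cmpk2, a nucleotide kinase gene that lies next to Rsad2, was at 2.90, 21.0 and 9.27 CPM. Ifi44 was at 8.48, 39.6 and 30.7 CPM, and Parp14, an ADP-ribosyltransferase, at 19.7, 49.2 and 42.2 CPM. Xaf1, an apoptosis regulator, was at 9.58 CPM in WT1101 and had ratios of 4.04 in KO1134 and 2.51 in KO1308. Rtp4 was at 34.5 CPM in WT1101, 182 in KO1134 and 62.5 in KO1308, so that the KO sections lay further from each other than KO1308 did from WT.

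**Figure D2:**
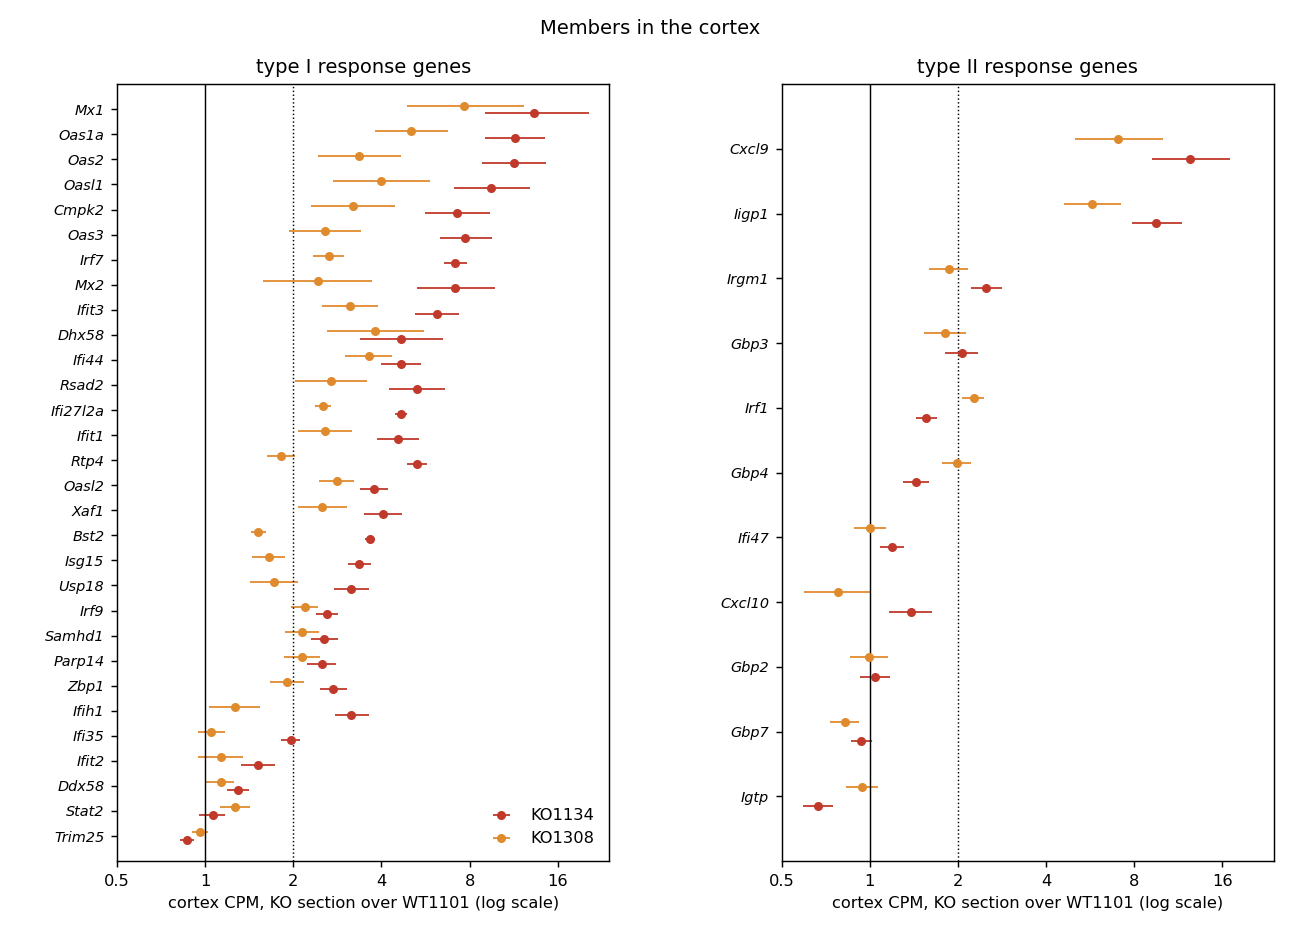
Cortex CPM of each KO section over WT1101 (log axis) for the 30 type I genes (left) and the 11 type II genes (right), with exact 95% intervals; the solid line marks a ratio of 1 and the dotted line 2. Mx1 and the oligoadenylate synthetase genes lead the type I genes and Trim25 stands last, while Cxcl9 and Iigp1 stand apart from the other type II genes.

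The type II genes were less uniform in the cortex. Their sum was 306 CPM (299 to 313) in WT1101, 449.8 CPM (439 to 461) in KO1134 and 446 CPM (432 to 461) in KO1308, ratios of 1.47 (1.42 to 1.52) and 1.46 (1.40 to 1.52). Of the 11 genes 7 lay above WT in both KO sections, beside 41.4% of all genes, and 2 lay below WT in both. Only Cxcl9 and Iigp1 were at least 2-fold above WT in both, beside 8.75% of 18074 genes. Cxcl9, a chemokine that attracts activated T cells, was at 1.92 CPM in WT1101, 23.9 in KO1134 and 13.5 in KO1308. Iigp1, an immunity-related GTPase that attacks the vacuoles of intracellular microbes, was at 4.83, 45.9 and 27.7 CPM. Iigp1 has close relatives in the genome, so its count is uncertain, and it is known to answer both interferons. Cxcl10, the sister chemokine, was at 11.9, 16.4 and 9.27 CPM, so the KO sections lay on either side of WT.

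The guanylate-binding proteins and the other immunity-related GTPases, which are known for defence against intracellular bacteria and parasites, were divided in the cortex. Gbp2 was at 29.9 CPM in WT1101, 31.2 in KO1134 and 29.7 in KO1308. Gbp7 was at 61.1, 57.2 and 50.1 CPM, and Igtp was at 40.6 CPM in WT1101 with ratios of 0.667 and 0.941; these were the 2 type II members below WT in both KO sections. Ifi47, another GTPase of the family, was at 40.5, 48.2 and 40.7 CPM, and its interval included 1 in KO1308. Gbp3 (16.1, 33.3 and 29.2 CPM) and Irgm1 (17.0, 42.3 and 31.6 CPM), a regulator of the GTPase family, were higher in both. Irf1, a transcription factor induced early in the response, was at 50.3, 78.6 and 113 CPM, and it was one of the members higher in KO1308 than in KO1134, as was Gbp4 (31.8, 45.7 and 63.1 CPM). Gbp genes lie in clusters of similar sequence, so reads may be divided among copies.

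In the medulla both lists were higher in KO. The type I sum was 1545 CPM in WT1101, 3954 in KO1134 and 2796 in KO1308, ratios of 2.56 (2.51 to 2.61) and 1.81 (1.77 to 1.85). The type II sum was 425, 905 and 820.3 CPM, ratios of 2.13 (2.05 to 2.21) and 1.93 (1.86 to 2.01). Of the 41 members 40 were above WT in both KO sections, beside 41.3% of all genes, Trim25 being the exception at 194, 166 and 147 CPM. At least 2-fold above WT in both were 14 type I and 3 type II genes, 17 of 41, beside 10.6% of 17220 genes. Cxcl9 was at 7.06 CPM in WT1101 medulla, 81.2 in KO1134 and 62.2 in KO1308, and Iigp1 at 16.7, 114 and 102 CPM. Cxcl10 was at 18.9, 60.0 and 34.5 CPM, above WT in both here, unlike in the cortex.

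For the type I genes the genotypes came closer in the thymocyte-poor medulla than in the cortex or the medulla, and the WT level was higher there than in both. These compartments were set from each section's own thymus-gene share and were not like for like. The 6 thymus genes summed to 1936, 627 and 1286 CPM in the medulla of WT1101, KO1134 and KO1308. In the thymocyte-poor medulla they summed to 595, 218 and 520.1 CPM, and the part of this in the results was not tested. The type I sum in the thymocyte-poor medulla was 3722 CPM (3639.6 to 3805) in WT1101, 4958 (4849.7 to 5069) in KO1134 and 3817 (3704 to 3933) in KO1308, with ratios of 1.33 (1.29 to 1.37) and 1.03 (0.988 to 1.06). The latter interval included 1. Only 3 of 41 members (Oas1a, Cxcl9 and Iigp1) were at least 2-fold above WT in both KO sections, beside 2.31% of 13133 genes. Oas1a was at 31.0, 71.9 and 68.3 CPM, Cxcl9 at 35.8, 146 and 98.5 CPM and Iigp1 at 68.7, 154 and 154 CPM in WT1101, KO1134 and KO1308. Isg15, by contrast, was at 202 CPM in WT1101, 243 in KO1134 and 135 in KO1308, and Rtp4 at 232, 313 and 176 CPM, with WT between the KO sections. The type II sum was 799, 1361 and 1122 CPM, ratios of 1.70 (1.60 to 1.82) and 1.40 (1.30 to 1.51). When the area outside the thymus was kept as first defined, outer tissue included, the type I ratio was 1.12 in KO1134 and 0.829 in KO1308 and the type II ratio 1.25 and 1.08. Of the 30 type I genes 3 were then above WT in both KO sections, but the share of all genes above WT in both was not computed for this area. Its tissue mix also differed, with 73 bins of outer tissue in WT1101 against 772 in KO1134 and 1264 in KO1308.

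**Figure D3:**
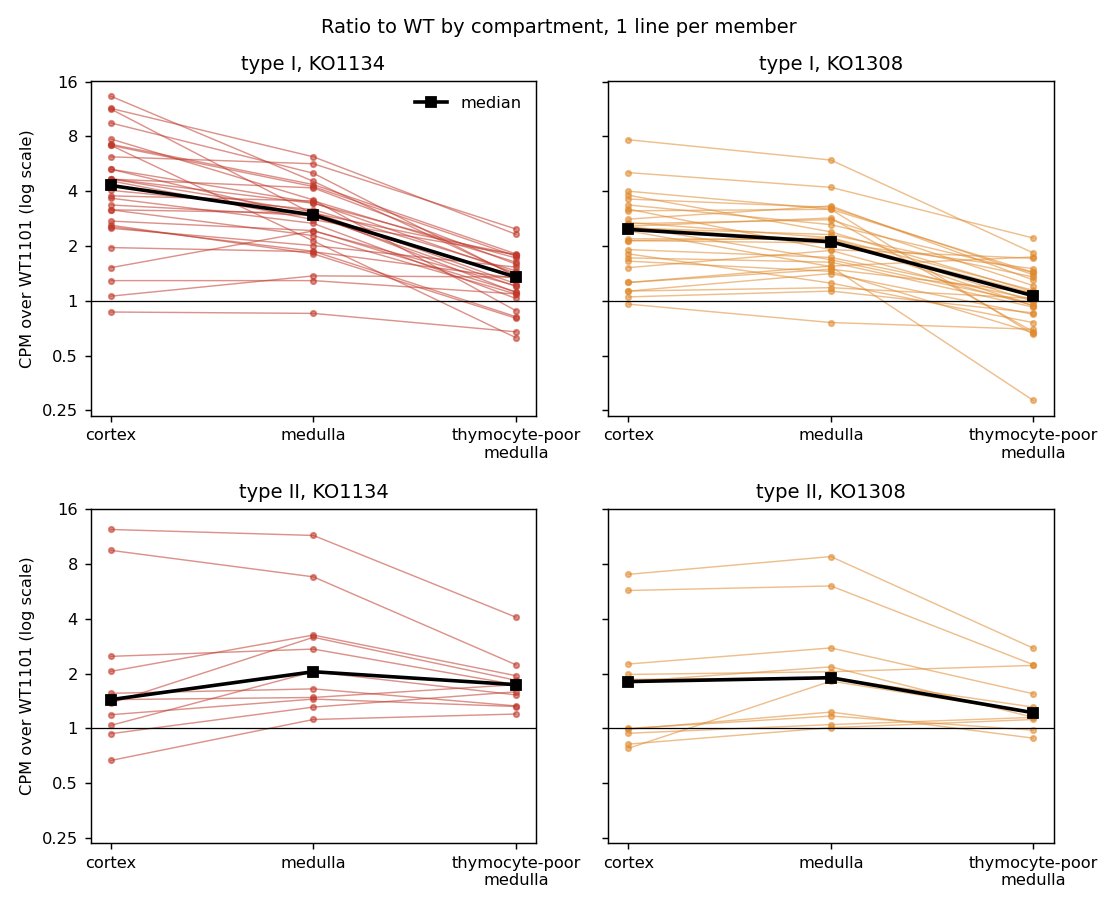
CPM of each KO section over WT1101 (log axis) in the cortex, the medulla and the thymocyte-poor medulla, with a line for each member and the median over the list in black. The type I median falls from 4.30 in the cortex to 1.35 in the thymocyte-poor medulla in KO1134 and from 2.46 to 1.06 in KO1308, while the type II median runs from 1.44 through 2.05 to 1.74 in KO1134 and from 1.81 through 1.90 to 1.22 in KO1308.

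Within each section, which shares library, mouse and permeabilisation, the response genes were higher toward the medulla. From cortex to medulla the type I sum differed by a ratio of 1.87 (1.83 to 1.91) in WT1101, 1.60 (1.58 to 1.63) in KO1134 and 1.99 (1.94 to 2.04) in KO1308, with WT1101 between the KO sections, whereas to the thymocyte-poor medulla the ratio was highest in WT1101. The order to the medulla holds for the sum only: the median ratio over the type I genes was 2.38 in WT1101, 1.54 in KO1134 and 1.95 in KO1308. The type I sum in the thymocyte-poor medulla over that in the cortex was 4.50 (4.39 to 4.62) in WT1101, 2.01 (1.96 to 2.06) in KO1134 and 2.72 (2.62 to 2.82) in KO1308. The type II ratio was 2.61 (2.48 to 2.75), 3.03 (2.88 to 3.18) and 2.51 (2.35 to 2.68), with WT1101 between the KO sections. Among the members 39 of 41 were above cortex in all 3 sections (all but Bst2 and Mx2, which were below it in KO1134), beside 29.9% of all genes, and 19 were at least 2-fold above it in all 3, beside 8.22% of 15408 genes. Mx1 had a ratio of 25.7 (16.2 to 41.6) in WT1101, 2.66 (1.97 to 3.54) in KO1134 and 6.14 (4.24 to 8.85) in KO1308. Isg15 had 7.21, 2.57 and 2.91. Bst2 had 3.50 in WT1101, 0.987 (0.915 to 1.06) in KO1134 and 2.17 in KO1308, so that its gradient was not seen in KO1134. Cxcl9 had 18.6, 6.13 and 7.28, but Cxcl10 had 4.28, 5.72 and 6.70, higher in both KO sections than in WT1101.

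The type I cortex difference was present away from the thymocyte-poor medulla; distance from the medulla itself was not measured. In cortex bins more than 400 µm from the thymocyte-poor medulla, the type I sum was 766 CPM in WT1101, 2449 in KO1134 and 1309 in KO1308, ratios of 3.20 (3.13 to 3.26) and 1.71 (1.66 to 1.76). Nearer, at 100 to 200 µm, it was 1235, 2594 and 1901 CPM. WT1101 was lower the further the cortex lay from the thymocyte-poor medulla, and KO1134 differed little between zones. The type II sum beyond 400 µm was 294, 447 and 424 CPM. Bins within 100 µm were too few for a comparison, with 65 in WT1101, 13 in KO1308 and 0 in KO1134.

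**Figure D4:**
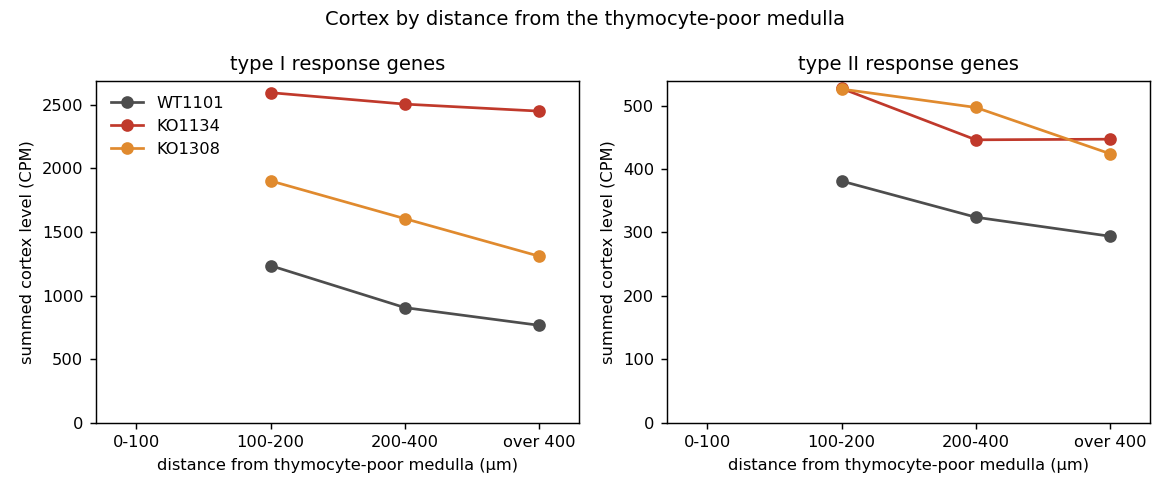
Summed cortex level (CPM) of the type I genes (left) and the type II genes (right) by distance from the thymocyte-poor medulla, with a line for each section; points resting on fewer than 100 bins are not drawn. In WT1101 the type I level is 1235 CPM at 100 to 200 µm and 766 CPM beyond 400 µm, below both KO sections in each zone drawn.

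Markers of other cell types were also higher in KO cortex. The 5 cytotoxic markers summed to 149 CPM in WT1101 cortex, 899 in KO1134 and 260.2 in KO1308, the 5 macrophage markers to 309, 691 and 411 CPM, and the 3 plasma cell markers to 209.5, 517 and 903 CPM. The 4 genes listed as markers of plasmacytoid dendritic cells, known as strong producers of type I interferon, summed to 243, 152 and 202 CPM. Siglech among them was at 1.66, 8.23 and 3.63 CPM, so these markers did not move together. Since Siglech made up little of the sum, the sum does not show how these cells differed. Among cortex bins without a UMI of any other cell type's marker, the type I ratio was 2.77 (2.41 to 3.18) in KO1134 and 1.78 (1.66 to 1.91) in KO1308. The type II ratio was 0.935 (0.613 to 1.37) and 1.58 (1.40 to 1.79) in the same bins. Only 90 bins of KO1134, 1013 of KO1308 and 2861 of WT1101 met this condition, which selects few and unusual bins and does not show that other cells were absent. Neutrophil markers were at 43.2, 6.16 and 8.14 CPM. The part of these cells in the results was not tested.

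The share of bins holding a response gene moved with these levels. After each bin was thinned to 500 UMIs, leaving out shallower bins (50 in KO1134, 1079 in KO1308 and 880 in WT1101), a type I UMI was present in 33.3% of WT1101 cortex bins, 67.6% of KO1134 and 49.3% of KO1308. Before thinning the shares were 67.8%, 97.4% and 70.8%. For type II genes the thinned shares were 14.7%, 19.6% and 20.0%.

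The B-cell zones, found only in the KO sections (1959 bins in KO1134 and 471 in KO1308), had type I sums of 3162 and 3468 CPM, and type II sums of 623 and 1143 CPM. In KO1134 only 8 of the 30 type I genes were above the cortex there, although their sum was 1.28 times that of the cortex; without Ifi27l2a the sum was 1738 CPM there and 2055 CPM in the cortex. In KO1308, 27 of 30 were above it. The share of all genes above the cortex in these zones was not computed, so these counts have no background beside them. In outer tissue the type I sum was 2956 CPM in KO1134, 2577 in KO1308 and 3899.8 in WT1101, where the last rests on 73 bins.

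The type I genes peaked in connected areas in each section. Each section was divided into blocks of 4 by 4 bins (108 µm wide), and the top 2% of blocks by summed type I level were 36 in WT1101, 15 in KO1134 and 21 in KO1308. In WT1101 22 of the 36 lay in 1 connected area, 15 of them in the medulla and 4 in the cortex, with a type I level of 6383 CPM inside and 1139 elsewhere. In KO1134 9 of the 15 lay in 1 area, 6 in the cortex and 3 in the medulla, at 9689.7 CPM against 3042. In KO1308 11 of the 21 lay in 1 area, at 5054 CPM against 2218. Medulla and thymocyte-poor medulla together held 88.9% of the top type I blocks in WT1101, 60.0% in KO1134 and 76.2% in KO1308. Of all blocks, the medulla held 35.8% in WT1101, 27.6% in KO1134 and 41.3% in KO1308, and the thymocyte-poor medulla 8.32%, 4.86% and 5.26%. The top type II blocks were more scattered, with 21 separate groups among 36 blocks in WT1101 (the largest of 10), 5 among 15 in KO1134 (the largest of 7) and 19 among 21 in KO1308 (the largest of 2). Since blocks were chosen by these genes, the levels inside describe the choice.

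**Figure D5:**
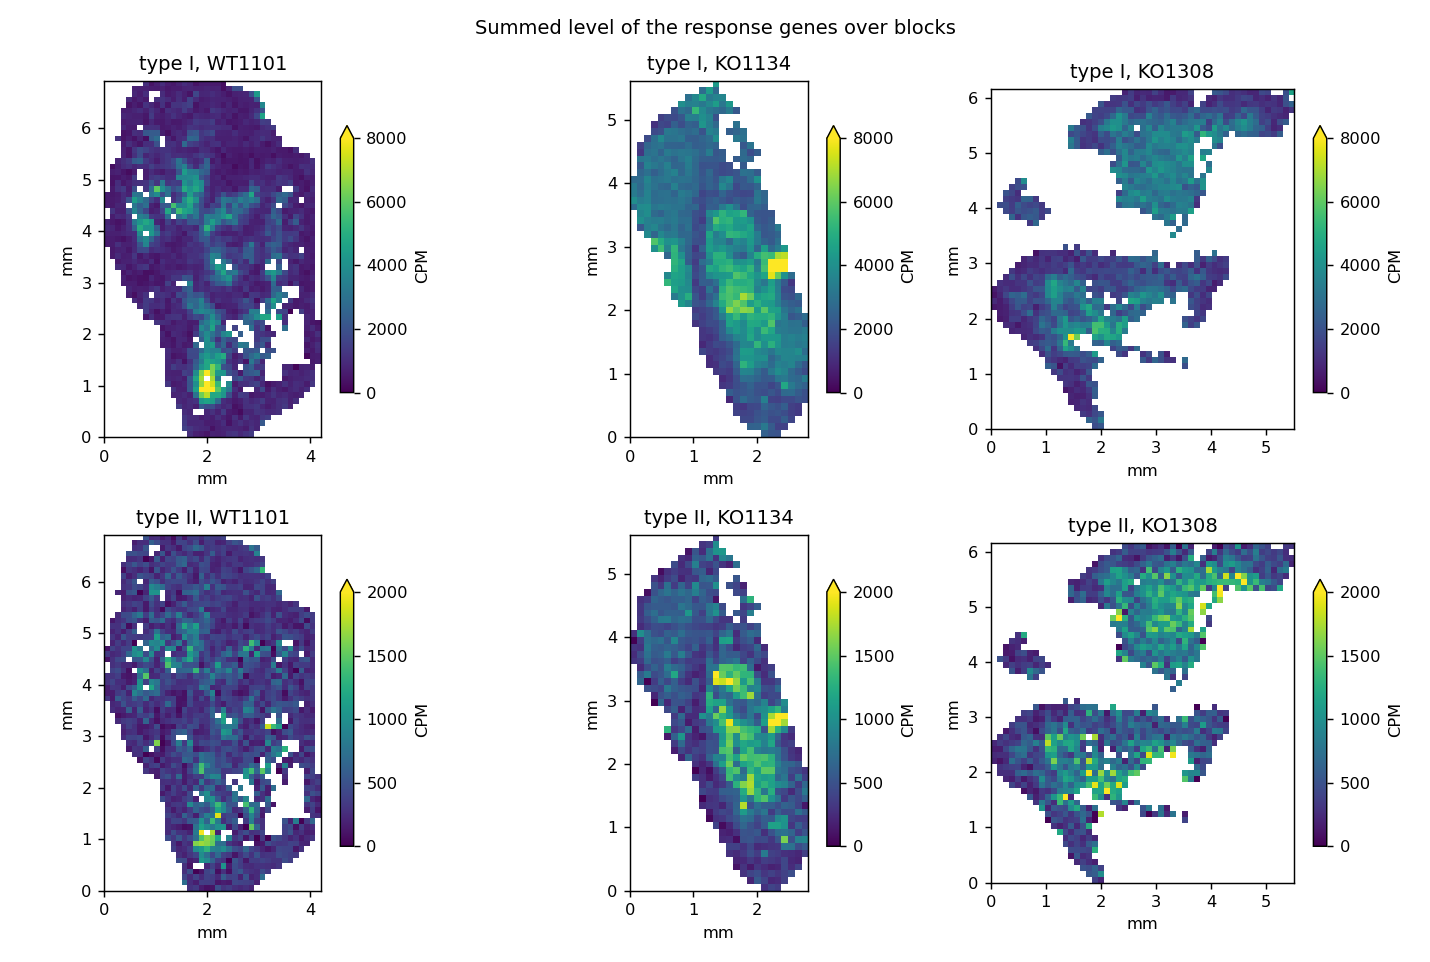
Summed type I level (top row) and type II level (bottom row), as colour in CPM on a scale capped at the same value in all 3 sections, in each block of 108 µm, with axes in mm. WT1101 has 1 bright type I area at its lower end and weaker patches above it, KO1134 has a raised level throughout with 1 small bright area at the right edge, and KO1308 is raised in the middle of its upper piece and beside the gaps of its lower piece.

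The bright area of KO1134 held type I and type II genes alike. Isg15 was at 929 CPM inside and 107 elsewhere, Ifit3 at 400.5 and 51.0, Mx1 at 137 and 15.3, Cxcl10 at 239 and 28.3, and Iigp1 at 325 and 63.4. In the bright area of WT1101 Isg15 was at 501 CPM against 43.9, Irf7 at 248 against 36.8 and Ifit3 at 131 against 10.3, whereas Cxcl9 rests on 8 UMIs. Trim25, which was not above WT in KO cortex, was also higher in this area, at 471 CPM against 172. When blocks were chosen with 15 type I genes and the level was read from the other 15, the chosen blocks were 5.41 (5.08 to 5.76) and 4.42 (4.21 to 4.64) times the rest in WT1101, 3.61 and 2.26 times in KO1134 and 2.20 and 1.89 times in KO1308. The chosen blocks were thus also higher in genes that had not chosen them, although both sets come from the same bins.

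The 2 responses peaked in part in the same places. Of the top blocks 13 of 36 (36.1%) were shared between the lists in WT1101, 7 of 15 (46.7%) in KO1134 and 5 of 21 (23.8%) in KO1308. Over all blocks, which share a library and its depth, the Spearman correlation of type I with type II level was 0.468 (n = 1790) in WT1101, 0.699 (n = 761) in KO1134 and 0.617 (n = 1064) in KO1308, given as a description. Within the cortex alone it was 0.160, 0.615 and 0.257. Markers of activated dendritic cells followed the type I level at 0.507, 0.512 and 0.532, and cortex markers followed it inversely at -0.472, -0.429 and -0.620. In WT1101 the type I level also fell with the UMIs of a block (-0.488), a smaller relation in KO1134 (-0.194) and KO1308 (-0.111).

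Among 6901 genes with enough UMIs, the non-members whose level over blocks was most like the type I sum, ranked by the lowest of the 3 correlations, were H2-K1 (0.706), H2-D1 (0.651) and B2m (0.644), all of class I antigen presentation, which is known as an interferon target. The type II sum was most like the same H2-K1 (0.458) and H2-D1 (0.456). In the top type I blocks Art3, Ifitm3 and Gvin1 led the non-members, at least 2.89, 2.72 and 2.54 times their level elsewhere in every section.

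Most of the upstream pathway could be read, but the interferon genes themselves were sparse. Of the 32 listed ligands, receptors, kinases, factors, inhibitors and nucleic acid sensing genes, 21 had enough UMIs in the cortex, and 2 of these (Cgas and Tlr3, both of nucleic acid sensing) were at least 2-fold above WT in both KO sections, beside 8.75% of all genes. The 9 listed interferon genes other than Ifng had only 2 UMIs in WT1101, 1 in KO1134 and 3 in KO1308 over all tissue, so their source could not be read. Interferon gamma (Ifng) was at 0.673 CPM in WT1101 medulla (8 UMIs), 4.02 in KO1134 (32 UMIs) and 3.38 in KO1308 (20 UMIs). The ratios were 5.97 and 5.02, with lower interval bounds of 2.69 and 2.12. In the cortex Ifng had 7, 13 and 5 UMIs, and the interval of its ratio included 1 in KO1308 (0.594 to 8.68). The same held for KO1308 in the thymocyte-poor medulla (0.420 to 16.9). The receptor genes did not move together: Ifnar1 was at 30.6, 21.3 and 27.8 CPM in the cortex of WT1101, KO1134 and KO1308, and Ifngr1 had ratios to WT of 0.487 in KO1134 and 1.33 in KO1308. Socs1, an inhibitor of the pathway, was at 85.9, 14.4 and 116 CPM, far lower in KO1134 alone.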

How the data were processed

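Spatial transcriptomes of thymus sections of 2 Trp53-/- mice and 1 Trp53+/+ mouse were used. The authors processed reads with BSTMatrix, aligned them with STAR to GRCm38 (build per the submitters' processing notes) and deposited raw UMI counts per spot and gene, with spot positions. The deposited counts were summed here into bins of 27 µm; bins with at least 300 genes and at most 30% mitochondrial UMIs, in connected groups of at least 200, were kept. The study also removed folded tissue, which was not done here. Totals were 31237062 UMIs (KO1134), 21089885 (KO1308) and 41581477 (WT1101) before filtering. Compartments were set in windows of 7 by 7 bins from 6 thymus genes (at least 50% of the share over the section), 9 cortex genes, 7 of 9 listed medulla genes and 3 B cell genes; Ccl21a and Ccl19 carry 2 gene IDs each and were left out of the medulla genes. CPM, ratios and exact intervals were computed with scipy; a call needed at least 2-fold in both KO sections and 20 UMIs over the sections compared. All members and listed genes may be named. Members, lists and tests were chosen with earlier results of these data known. Alternatives were other bin widths, gene minimums, windows, thymus limits, scalings, block sizes and leaving out each KO section. The calculations were tested on simulated data. The sample table of the study lists a KO thymus whose depth resembles that of the section labelled KO1134 under the other mouse number; labels were used as deposited. One listed pathway gene is not reported here.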

Additional observations from a re-analysis of the deposited data

Results flagged for a closer look

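For 4 of the 30 type I members both KO sections lay above WT in the cortex and below WT in the thymocyte-poor medulla. The difference between the compartments was not tested, and the share of all genes with this pattern was not computed. Of all genes, 41.4% lay above WT in both KO sections in the cortex and 29.6% in the thymocyte-poor medulla. The median gene of the latter had a ratio of 0.924 in KO1134 and 0.997 in KO1308. The ratio to WT of Mx2 was 7.14 in the cortex and 0.627 in the thymocyte-poor medulla in KO1134, and 2.42 and 0.283 in KO1308. For Oas3 it was 7.74 and 0.882 in KO1134, and 2.57 and 0.675 in KO1308. For Irf9 it was 2.60 and 0.802 in KO1134, and 2.19 and 0.938 in KO1308. For Samhd1 it was 2.55 and 0.818 in KO1134, and 2.14 and 0.991 in KO1308. The intervals of several of the ratios below 1 include 1, those of Mx2 in KO1134 (0.359 to 1.06) and Samhd1 in KO1308 (0.850 to 1.15) among them.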

How the results depend on the processing

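No paired analysis was possible because only 1 WT section was analysed. Of 236 values of 29 results under other settings, 203 stayed within a limit set for each kind of result, 31 moved and 2 reversed. For KO means the limit was the SD of both KO sections, and for WT ratios their interval. A KO mean with 1 of the 2 KO sections left out always lies within that SD, so it could not count as moved. Where the SD was wide, as for the type I cortex ratio (2.34 ± 0.912), large moves also counted as staying, so the count of 203 does not measure robustness. Both reversals came with the area outside the thymus kept as 1 compartment: the mean type I ratio of the thymocyte-poor medulla was then 0.975 (1.18 with the division, added after the data were seen) and the median member ratio 0.938 (1.25), the type II ratio 1.17, the type II gradient over cortex in KO 2.10, and the members at least 2-fold above WT 1. The type II ratio in the cortex, 1.46, moved most often since both KO sections lay so close: it was 1.48 with bins of 20 µm, 1.52 with 50 µm, 1.49 with at least 200 genes, 1.51 without ribosomal protein and mitochondrial genes in the total, 1.49 with a window of 5 bins, 1.43 with the thymus at 70%, 1.33 scaled to the median gene, 1.45 in T bins, 1.38 without Irf1, its most abundant member, and, in settings added later, 1.26 in marker-free bins and 1.48 beyond 400 µm. In WT1101 the type I ratio of medulla over cortex was 1.66 with 20 µm, 2.22 with 50 µm, 1.79 with at least 500 genes, 1.72 with the smaller window and 1.55 with 70%, and that of the thymocyte-poor medulla 4.71 with 20 µm, 4.76 with 500 genes and 4.08 with 70%. The type II ratio of medulla over cortex was 1.31, 1.53, 1.33 and 1.25 in WT1101 with 20 µm, 50 µm, the smaller window and 70%, and 1.79 in KO with 70%; that of the thymocyte-poor medulla in WT1101 was 2.45 with 70%. With blocks of 6 by 6 bins the correlation of both lists was 0.746 in KO1308 and 0.618 in WT1101. Leaving out 1 KO section gave 21 to 30 members at least 2-fold above WT in the medulla (30 with KO1134 alone), and type I cortex ratios of 1.70 to 2.99. The causes were not tested. Depth limits genes such as Mx1 and Cxcl9 in WT1101 cortex, the interferon genes, and every statement about genotype rests on 1 WT mouse.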

Other observations

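Genes that sense nucleic acids upstream of interferon and genes of class I antigen presentation were read beside the members. Tmem173, which encodes the STING adaptor, was at 11.5 CPM in WT1101 cortex, 64.0 in KO1134 and 21.7 in KO1308, and Tlr3, a receptor for double-stranded RNA, was at 2.83, 13.3 and 6.51 CPM. Cgas, the DNA sensor that acts through STING, was at 2.68, 6.16 and 6.26 CPM. Mavs, the adaptor of the RIG-I pathway, was at 17.5, 31.1 and 13.3 CPM, on either side of WT, and Tlr7, a receptor for single-stranded RNA, was at 4.22, 10.4 and 5.01 CPM, with a ratio in KO1308 of 1.19 (0.805 to 1.72). Tlr9 had no UMI in the cortex of any section. B2m, the light chain of class I molecules, was at 519, 1370.4 and 1115 CPM in the cortex. Tap1, the peptide transporter, was at 115, 165 and 181 CPM, but Psmb8, a subunit of the immunoproteasome, was at 200.5, 139 and 168 CPM, below WT in both KO sections.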
